A study of Sus scrofa with 9 samples.

Results

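The microRNA loci on a pig whole-transcript array were taken as every probe set whose only gene symbol began with MIR or MIRLET followed by a digit. Of 27558 probe sets, 175 met this rule. They stood for 161 of the 12361 named genes, because 14 loci carried a pair of probe sets with identical values on all 9 arrays. Each such pair was counted once. The values came from the longissimus dorsi, the long back muscle, of 9 finishing pigs, all male, and each pig gave 1 array. Breed and age do not appear in the labels. At a starting weight near 95 kg the animals were put on 1 of 3 diets for 5 weeks: lysine-deficient (pigs 1, 2 and 3), lysine-adequate (pigs 5, 6 and 7) or lysine-excess (pigs 9, 10 and 11). The comparisons ask how muscle transcripts differ with the supply of lysine, an essential amino acid. The pigs were separate animals, and 3 per diet limit the precision.

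MicroRNAs are short RNAs that repress messenger RNAs by pairing with them. Each is cut from a hairpin inside a longer primary transcript, first by DROSHA and DGCR8 in the nucleus and then by DICER1 in the cytoplasm, and is loaded into an Argonaute protein. Many hairpins lie inside protein-coding genes or next to each other in clusters that share 1 primary transcript, and a small group, often called the myomiRs, is known for high levels in striated muscle. The arrays were hybridised with cDNA amplified from total RNA, and the labels name no step that selects small RNA. A value here therefore cannot be assigned to the primary transcript, the hairpin or the mature microRNA.

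The muscle identity of the samples was checked on genes outside the microRNA group. All 5 measured markers (of 13 listed) of skeletal muscle fibres, ACTA1, MYH1, MYH7, NEB and MYLPF, lay between 12.56 and 13.36, in a table that runs from 3.10 to 14.30 on the log2 scale. None of 3 erythroid markers reached the median of all probe sets. The array of excess pig 11 stood apart from the other 8, with a correlation of 0.904 to 0.956 to them against at least 0.977 among the others, and with a median of 5.21 against 5.01 to 5.07. Weights for array quality, used in 1 alternative fit, were low in the whole excess group. They were 0.678, 0.192 and 0.22 for excess pigs 9, 10 and 11, against 0.902 to 2.46 in the other diets. For many results that rest on excess pig 11, though not for all, the value without that pig is also given.

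Most microRNA loci read low. Of the 161 loci, 134 (83.2%) had a mean over the 9 arrays below the median of all probe sets, 5.07 log2 units, and 27 were at or above it. The median locus lay at 4.18, the 14.74th percentile of all probe sets. In the lowest 10% of probe sets, below 4.08, lay 67 loci (41.6%), whereas 6 were in the top 25%, above 6.85. Signal over background was not tested, so folds of loci below the median are not exact. Probe sets differ in affinity, so a level is read here against the median of all and not against another locus.

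**Figure D1:**
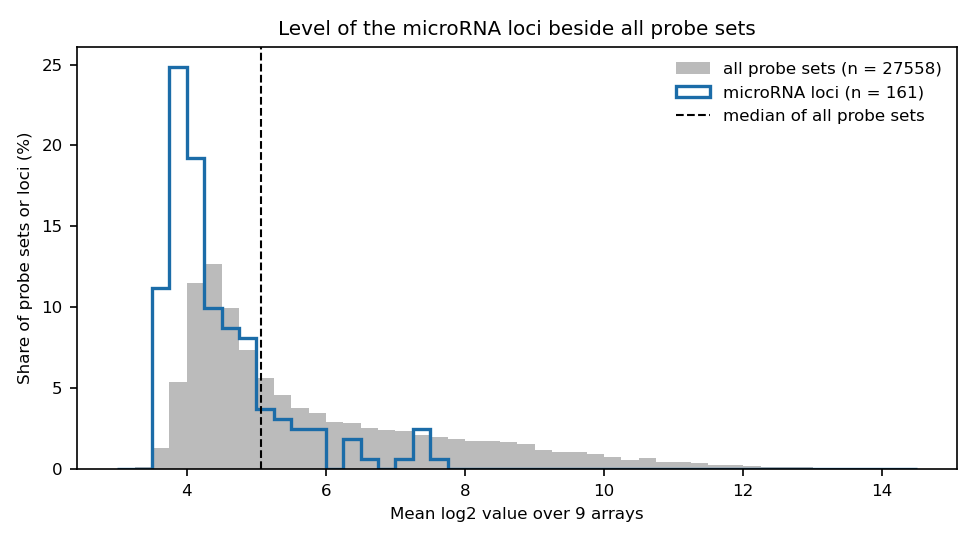
Share (%) of 161 microRNA loci (blue line) and of all 27558 probe sets (grey) by mean log2 value over 9 arrays, in bins of equal width. The dashed line is the median of all probe sets at 5.07, and the peak of the blue line lies to its left, around the median locus at 4.18.

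Because probe sets differ in affinity, the following means do not order the microRNAs by abundance. The 10 loci with the highest means were MIR210 (7.72), MIR574 (7.46), MIR324 (7.45), MIR181C (7.42), MIR328 (7.38), MIR99B (7.21), MIR92B (6.72), MIR105-1 (6.45), MIR98 (6.31) and MIR149 (6.31). MIR210, a microRNA known for its induction by low oxygen, read 8.03, 7.77 and 7.63 in deficient pigs 1, 2 and 3, 7.68, 7.83 and 7.68 in adequate pigs 5, 6 and 7, and 7.58, 7.68 and 7.59 in excess pigs 9, 10 and 11. The adequate range lay inside the deficient range, and the excess mean differed from the adequate mean by -0.12 ± 0.11 (SE). MIR574 had a wider span, at 7.93, 7.38 and 7.07 in the deficient pigs, 6.53, 7.22 and 7.56 in the adequate pigs and 7.31, 7.92 and 8.24 in the excess pigs, with overlapping groups and an excess minus adequate difference of 0.72 ± 0.35 (unadjusted p = 0.0742, limma adjusted p = 0.757). That difference includes excess pig 11, the highest of the 9 pigs at this locus. MIR324, within the fatty acid oxidation gene ACADVL, ran only from 7.31 to 7.68 over the 9 pigs. The 3 loci with the lowest means were MIR103-1 at 3.50, MIR126 at 3.56 and MIR17 at 3.56. MIR126 is the microRNA of endothelial cells, and the endothelial gene that holds it, EGFL7, read 5.97.

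Among the myomiRs, 7 loci were measured, and 6 of them were under the median level of the array. MIR133B was the exception at 5.18, the 52.44th percentile. MIR486-1 lay at the 46.4th percentile. MIR208B lay at the 4.99th percentile, MIR206 at the 3.44th, MIR1 at the 1.70th, MIR499 at the 1.06th and MIR133A-1 at the 0.45th. MIR208A had no probe set under this rule and was not analysed here.

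MIR133B, of a family known for promoting myoblast proliferation, read 4.83, 4.76 and 6.08 in deficient pigs 1, 2 and 3. Its values were 4.81, 4.68 and 5.49 in adequate pigs 5, 6 and 7, and 5.10, 5.68 and 5.20 in excess pigs 9, 10 and 11. Deficient pig 3 was the highest of the 9, and all groups overlapped. The deficient mean was 0.23 ± 0.38 (SE, n = 3 pigs per diet) above the adequate mean and the excess mean 0.33 ± 0.38 above it, with limma adjusted p of 1 and 0.773. MIR206, its neighbour within 10 kb, spanned only 3.82 to 3.94 over all 9 pigs.

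MIR208B, the microRNA of the slow myosin gene MYH7, gave 3.999, 3.67 and 4.48 in the deficient pigs, 3.91, 3.80 and 3.84 in the adequate pigs, and 4.10, 3.88 and 3.84 in the excess pigs, in the order of the pig numbers above. The highest value again belonged to deficient pig 3, and the groups overlapped. MIR499, the counterpart in the myosin gene MYH7B, ran from 3.59 to 3.78 over the 9 pigs. MIR1, the broadest of the striated-muscle microRNAs, ran from 3.65 to 3.98, and MIR133A-1 from 3.53 to 3.78. For MIR486-1 the pigs lay between 4.77 and 5.26, with deficient pig 3 at the top.

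In none of the 3 comparisons did any of these 7 loci reach an unadjusted p of 0.05 in the limma fit, nor did the pigs of a diet all lie beyond those of another. Of all probe sets, 1.85% to 4.08% reached that p, depending on the comparison. From 2.19% to 4.28% were without overlap in a given direction. At such shares 0 of 7 is not particular to these loci. The log2 differences of the 7 loci from the adequate pigs ran from -0.015 to 0.23 for deficient pigs (median 0.10; all probe sets, 0.0071; those below the median, 0.0212). For excess pigs they ran from -0.037 to 0.33 (median 0.045; all probe sets, 0.00060; those below the median, 0.0585). Without excess pig 11 the latter ran from -0.014 to 0.40 (median 0.065; probe sets below the median, 0.0159). In 1 of the 7 the remaining excess pigs then lay above all adequate pigs, as in 6.63% of all probe sets. The number of the 7 with a higher mean in deficient than in adequate pigs was 5, and it ran from 3 (without deficient pig 3) to 6 when single pigs were left out.

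**Figure D2:**
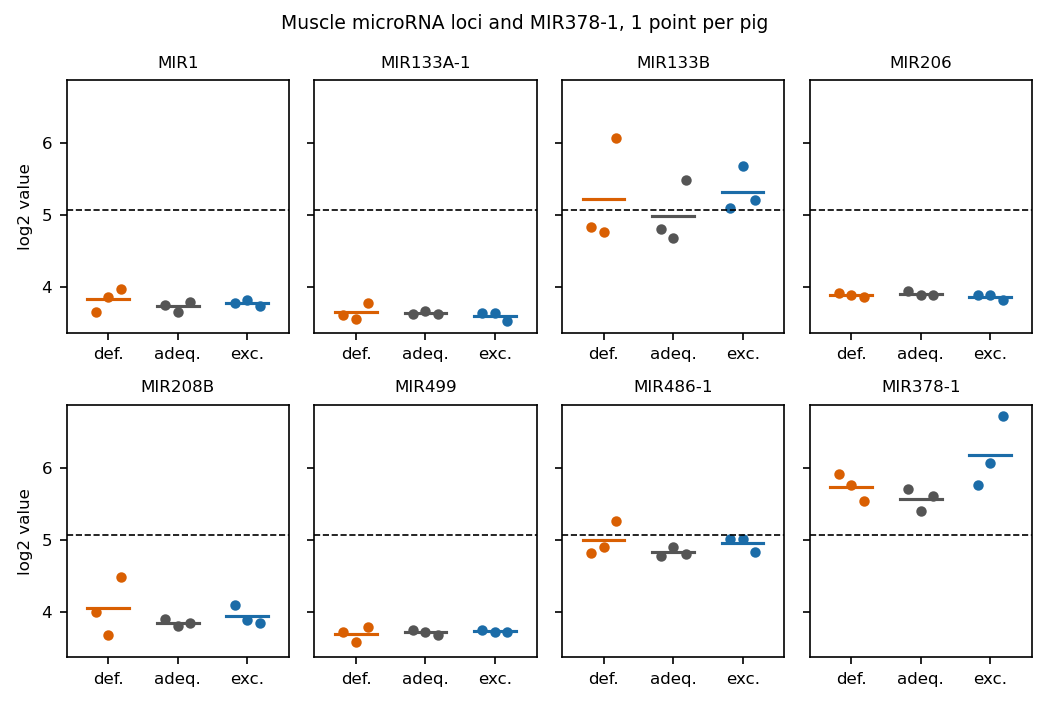
Log2 values of 7 muscle microRNA loci and MIR378-1, 1 point per pig, by diet (def., lysine-deficient; adeq., lysine-adequate; exc., lysine-excess); bars are group means of 3 pigs and the dashed line is the median of all probe sets. All points of MIR378-1 lie above the line, and those of MIR133B and MIR486-1 lie on both sides of it. The 3 excess pigs of MIR378-1 lie above the 3 adequate pigs.

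MIR378-1 was the single MIR378 locus and sat at the 63.47th percentile of all probe sets, with a mean of 5.83. The hairpin lies inside PPARGC1B, a coactivator of mitochondrial genes, and the microRNA is known from mitochondrial metabolism and myoblast differentiation. Its values were 5.91, 5.77 and 5.54 in deficient pigs 1, 2 and 3, 5.70, 5.39 and 5.61 in adequate pigs 5, 6 and 7, and 5.76, 6.06 and 6.72 in excess pigs 9, 10 and 11. All excess pigs lay above all adequate pigs, the nearest pair by a small margin, while the deficient pigs overlapped both groups. The excess mean of 6.18 ± 0.49 (SD, n = 3) exceeded the adequate mean of 5.57 ± 0.16 by 0.61 ± 0.23 (SE), or 1.53-fold. The unadjusted p was 0.0322 and the limma adjusted p 0.757, so the difference did not pass. Without excess pig 11 it was 0.34, and the deficient pigs, 0.44 below the excess pigs in mean with it (difference -0.44), were 0.17 below them without it (-0.17).

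PPARGC1B itself read 4.93 in mean and did not follow this order. Its values were 4.89, 4.90 and 4.98 in the deficient pigs, 4.93, 4.91 and 4.84 in the adequate pigs, and 5.38, 4.69 and 4.89 in excess pigs 9, 10 and 11. Only excess pig 9 stood above the rest, whereas for MIR378-1 pig 9 was the lowest of its group. The excess minus adequate difference of PPARGC1B was 0.093 ± 0.16 (limma adjusted p = 0.831), and it turned to -0.10 without excess pig 9. The difference between the 2 patterns was not tested.

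The genes that hold microRNA loci were next set against the same median. In the Sscrofa11.1 RefSeq gene table, 80 loci lay within the span of a protein-coding gene, whatever its strand, and 57 of them lay within 50 genes measured on the array. Of these 50 genes, 35 were at or above the median of all probe sets, against 12 of the 57 loci inside them. For 32 loci the gene was above the median and the locus below it. Outside protein-coding genes, 12 of 81 loci reached the median. MYH7, the slow myosin heavy chain, was at the 99.64th percentile with a mean of 12.56, while MIR208B inside it was at the 4.99th. MYH7B lay at the 69.66th percentile and ANK1, the ankyrin that holds MIR486-1, at the 73.14th.

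Other genes above the median held a locus below it. PANK3, a kinase of coenzyme A synthesis, was at the 75.46th percentile and its MIR103-1 at the 0.12th. The signalling kinase JAK1 was at the 93.92nd and MIR101-2 at the 2.6th. ELMO3, at the 24.98th percentile, was below the median while MIR328 inside it was at the 79.8th. FAM114A1 was at the 65.82nd percentile and MIR574 at the 80.6th, both above the median. HUWE1, a ubiquitin ligase at the 94.80th percentile, holds MIR98 at the 69.4th and MIRLET7F-1 at the 19.4th. GPC1, a surface proteoglycan, was at the 78.45th percentile and MIR149 inside it at the 69.4th.

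**Figure D3:**
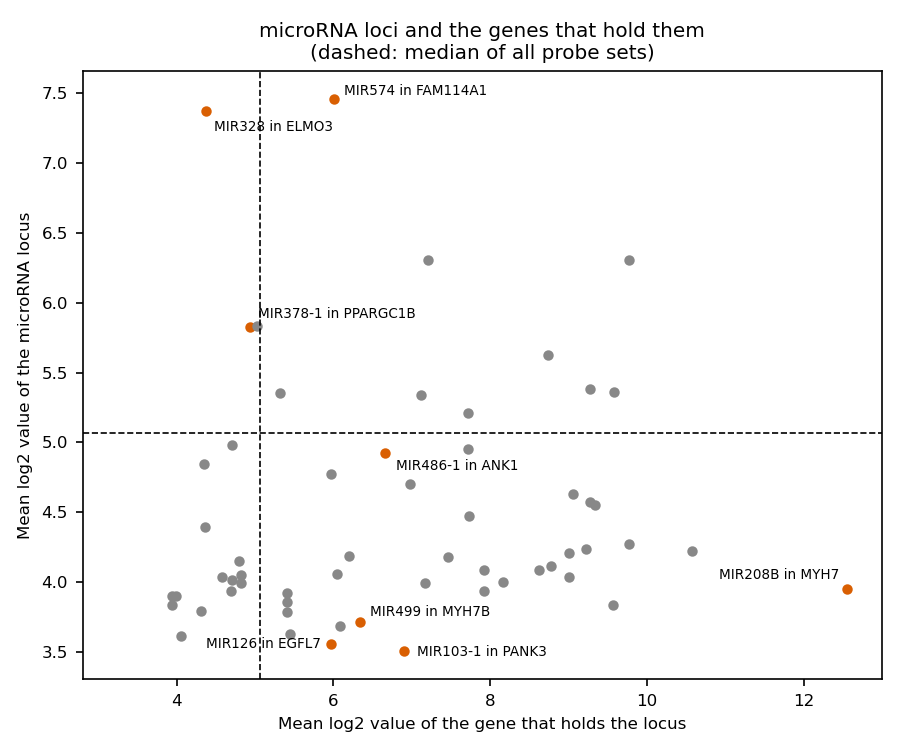
Mean log2 value over 9 arrays of each microRNA locus (vertical) against that of the measured gene that spans it (horizontal), 1 point per pair; dashed lines mark the median of all probe sets and orange points are labelled pairs. The lower right field holds 32 loci whose gene is above the median while the locus is below, with MIR208B in MYH7 at its far end.

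Between the deficient and adequate diets no locus passed. Across all 27558 probe sets 0% passed at a limma adjusted p of 0.05 and 1.85% at an unadjusted p of 0.05, and of the 161 loci 0 passed at either level. Without excess pig 11, whose spread enters the fit, 4 loci reached the unadjusted level: MIR92A-1, MIR221, MIR125B-1 and MIR23A. That was 2.48% of the loci against 3.54% of all probe sets. Without deficient pig 3 the count was 6, and the share of all probe sets in that fit is not given here. In 10 loci all deficient pigs lay above all adequate pigs, and in 6 all lay below, which is 6.21% and 3.73% of the loci against 3.77% and 3.07% of all probe sets. In mean, 106 of 161 loci (65.8%) were higher in the deficient pigs, against 61.9% of all probe sets below the median and 52.9% of all probe sets. The median difference of the loci was 0.030, about that of probe sets below the median, 0.021.

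The lower loci were led by MIR92A-1, a member of the cluster from MIR17 to MIR92A-1 that is known for driving cell proliferation. It read 3.91, 4.32 and 3.88 in deficient pigs 1, 2 and 3, 4.39, 4.62 and 4.93 in adequate pigs 5, 6 and 7, and 4.36, 4.45 and 5.31 in excess pigs 9, 10 and 11. Each deficient pig was below every pig of the other diets. The deficient mean was lower than the adequate mean by 0.61 (difference -0.61 ± 0.27, SE; 1.53-fold; unadjusted p = 0.0554, limma adjusted p = 1).

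All 6 loci of this cluster, MIR17, MIR18A, MIR19A, MIR20A, MIR19B-1 and MIR92A-1, had a lower mean in deficient than in adequate pigs. This held under both other scalings and with each pig left out in turn. MIR18A gave 4.08, 4.22 and 4.29 in the deficient pigs and 4.34, 4.31 and 4.52 in the adequate pigs, again without overlap (difference -0.19 ± 0.087). MIR20A (-0.51 ± 0.24) and MIR19B-1 (-0.49 ± 0.25) overlapped, because deficient pig 2 lay at 4.97 and 4.44, within the adequate range. The differences of MIR19A and MIR17 were -0.11 ± 0.14 and -0.026 ± 0.053. The 6 hairpins share a primary transcript, so they are not 6 independent measurements, and all 6 were below the median of all probe sets.

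With the paralogous cluster of MIR363-1, MIR92A-2, MIR19B-2 and MIR106A, and with MIR92B, which had no measured neighbour within 10 kb, the list holds 11 loci. Of these 11, 9 were lower in deficient pigs (median difference -0.11; all probe sets, 0.0071). MIR92B was higher instead, by 0.17 ± 0.12. Between excess and adequate pigs the direction of the 6 clustered loci depended on the setting and on single pigs. As deposited, 3 of 6 had a higher mean in excess pigs. The number was 1 with the arrays centred on their medians, and 0 after a further quantile normalization, with array quality weights or with array SD in the model. Without excess pig 11 or without adequate pig 5 all 6 were lower in excess pigs, and without adequate pig 7 the number higher was 5. Without pig 11 the differences ran from -0.29 for MIR20A to -0.017 for MIR17, with MIR92A-1 at -0.24. MIR92A-1 was also below the excess mean (-0.67 ± 0.27, unadjusted p = 0.0389, limma adjusted p = 0.872), and the difference was -0.37 without excess pig 11.

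MIR29B-1, of a family known for repressing collagen messages, read 4.34, 4.51 and 4.59 in the deficient pigs and 4.75, 4.63 and 4.61 in the adequate pigs, a difference of -0.19 ± 0.086. It was lower in the excess pigs too, at 4.54, 4.53 and 4.40, by nearly the same amount (-0.18 ± 0.086). Both comparisons share the adequate pigs. For MIR29A, its neighbour, the differences were -0.11 ± 0.17 and -0.086 ± 0.17 with overlapping groups, and the latter was 0.0062 without excess pig 11. MIR29C, the third measured member of the family, went the other way, by 0.42 in deficient and 0.25 in excess pigs. The latter was without overlap, and was 0.22 without excess pig 11. Without deficient pig 3, 0 of the 3 members had a higher mean in deficient pigs. MIR105-2 (-0.29 ± 0.18) and MIR744 (-0.20 ± 0.13), inside the kinase gene MAP2K4, completed the 5 leading loci that were lower in every deficient pig than in any adequate pig.

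Among the loci higher in every deficient than in any adequate pig, MIR23A led. It belongs to the clusters of miR-23, miR-27 and miR-24, and is known for repressing the muscle ubiquitin ligases of atrophy. Its values were 4.71, 4.35 and 4.24 in deficient pigs 1, 2 and 3, 3.997, 4.18 and 4.11 in adequate pigs 5, 6 and 7, and 3.94, 4.19 and 4.42 in excess pigs 9, 10 and 11. The excess pigs spanned both ranges. The deficient minus adequate difference was 0.33 ± 0.16 (unadjusted p = 0.0654, limma adjusted p = 1), and 0.20 without deficient pig 1.

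MIR23B, in the paralogous cluster, read 3.77, 3.77 and 3.89 in the deficient pigs against 3.76, 3.65 and 3.70 in the adequate pigs, a narrow separation with a mean difference of 0.11 ± 0.066. All 6 loci of the 2 clusters had a higher mean in the deficient pigs (median 0.076), against 61.9% of probe sets below the median and 52.9% of all. Of the 6, 3 had no overlap, MIR23A, MIR23B and MIR24-2. That was so for 4.17% of probe sets below the median and 3.77% of all. MIR23B and MIR24-2 lie in the same cluster, so the 6 loci are not 6 independent measurements. After a further quantile normalization 4 of the 6 were higher and after centring on array medians 5. The count was also 5 of 6 with array quality weights or with array SD in the model. Leaving out deficient pig 1, 2 or 3 or adequate pig 6 gave 5 of 6 as well. None of the 6 reached the median of all probe sets.

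**Figure D4:**
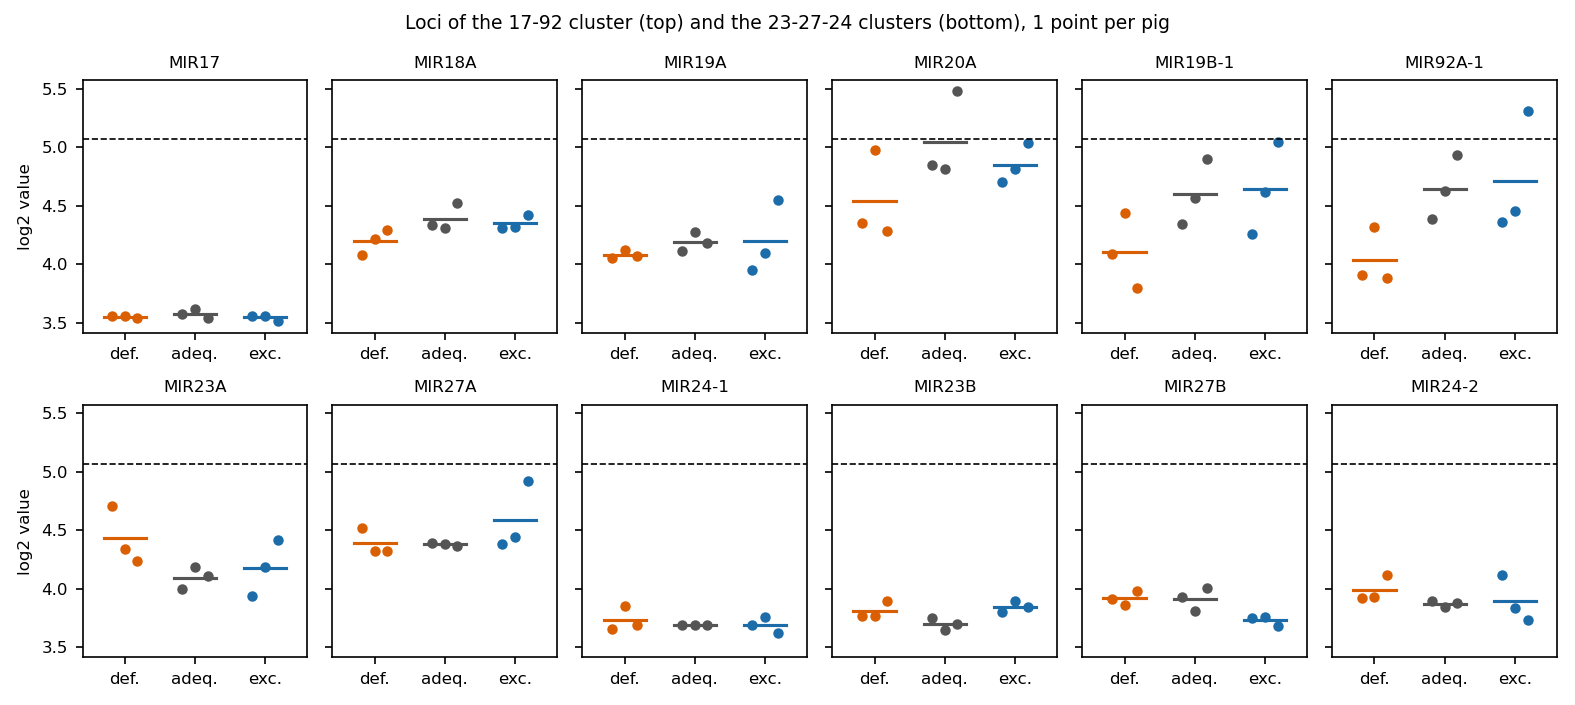
Log2 values of the 6 loci from MIR17 to MIR92A-1 (top row) and of the 6 loci of the miR-23, miR-27 and miR-24 clusters (bottom row), 1 point per pig, by diet (def., lysine-deficient; adeq., lysine-adequate; exc., lysine-excess); bars are group means of 3 pigs and the dashed line is the median of all probe sets. All 12 loci have means below the line, and MIR92A-1 and MIR18A have every deficient pig below every adequate pig.

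MIR15A, known with MIR16 for holding back cell-cycle genes, read 4.36, 4.42 and 5.26 in the deficient pigs, 4.32, 4.32 and 4.10 in the adequate pigs, and 4.32, 4.30 and 4.16 in the excess pigs. The deficient pigs lay above all others, although deficient pig 3 alone stood far from the rest, and the adequate and excess pigs overlapped. The difference from the adequate pigs was 0.43 ± 0.23 with that pig and 0.14 without it. MIR125B-1, which acts on IGF2 in myoblasts, read 4.40, 4.25 and 4.20 in the deficient pigs against 3.995, 4.05 and 4.15 in the adequate pigs (0.22 ± 0.12). MIR181C, above the median level of the array, read 7.73, 7.46 and 7.33 against 7.30, 7.12 and 7.32 (0.26 ± 0.17).

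Between the excess and adequate diets 0% of all probe sets passed at a limma adjusted p of 0.05. At an unadjusted p of 0.05 the share was 3.56% of all probe sets and 4.35% of the loci, 7 of 161. The 7 were MIR99B, MIR378-1, MIR296, MIR187, MIR125B-1, MIR191 and MIR27B. Without excess pig 11 the count was 1 of 161, MIR296, or 0.621% against 2.44% of all probe sets. The count was 3 without adequate pig 5, adequate pig 6 or excess pig 10, and 28 without excess pig 9. The shares of all probe sets in those fits are not given here, so a change particular to the loci cannot be read from them. In 7 loci all excess pigs lay above all adequate pigs and in 2 all lay below, or 4.35% and 1.24%, against 3.2% and 3.84% of all probe sets. Without excess pig 11 these counts were 12 and 8 (7.45% and 4.97%), against 6.63% and 6.36% of all probe sets. In mean, 121 of 161 loci (75.2%) were higher in excess pigs, against 72.0% of all probe sets below the median and 50.2% of all probe sets. Without pig 11 it was 62.7%, against 58.4% and 51.2%. That share depended on the scaling: it was 59.6% after a further quantile normalization and 47.8% after centring on array medians.

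MIR296, a microRNA known from blood vessel growth, gave 4.82, 5.05 and 4.86 in adequate pigs 5, 6 and 7 and 5.26, 5.50 and 5.35 in excess pigs 9, 10 and 11. The deficient pigs, at 5.27, 4.97 and 5.05, overlapped both. Its excess minus adequate difference of 0.46 ± 0.11 (SE; 1.38-fold) had the smallest unadjusted p of all loci in any comparison, 0.00332, with a limma adjusted p of 0.757. It was 0.47 without excess pig 11 and ran from 0.39 to 0.53 with other single pigs left out. Its adjusted p over the alternatives ran from 0.264 to 1.

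MIR191, which lies with MIR425 inside DALRD3, read 3.99, 3.97 and 4.09 in the adequate pigs and 4.12, 4.21 and 4.24 in the excess pigs, a difference of 0.17 ± 0.062. MIR125B-1 was at 4.31, 4.21 and 4.66 in the excess pigs, 0.33 ± 0.12 above the adequate pigs, and 0.19 without pig 11. MIR23B was 0.15 ± 0.066 higher, at 3.80, 3.90 and 3.85. These 3 loci were among those with every excess pig above every adequate pig, and all had means under the median level of the array.

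The cluster of MIR99B, MIRLET7E and MIR125A had a higher mean in excess than in adequate pigs at all 3 loci, under both other scalings and with each pig left out. MIR99B read 7.20, 7.28 and 7.06 in the deficient pigs, 6.94, 6.86 and 7.19 in the adequate pigs, and 7.08, 7.47 and 7.77 in the excess pigs. Excess pig 9 lay within the adequate range, and the difference was 0.44 ± 0.18 (unadjusted p = 0.0367, limma adjusted p = 0.757), or 0.28 without pig 11. MIRLET7E read 4.74, 4.97 and 4.96 in the adequate pigs against 4.99, 5.18 and 4.997 in the deficient and 4.99, 4.99 and 5.25 in the excess pigs. Every adequate pig was thus the lower, with adequate pig 6 at 4.97 just under the nearest pigs at 4.99, and the differences were 0.17 ± 0.11 and 0.19 ± 0.11. MIR125A differed by 0.015 ± 0.087 in deficient and 0.14 ± 0.087 in excess pigs, with overlap. MIR187, outside this cluster, read 4.62, 4.28 and 4.48 in the adequate and 4.62, 4.75 and 4.71 in the excess pigs (0.23 ± 0.093). The nearest pigs of these groups lay at one level, so the groups touched.

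MIR27B, a hairpin of the same cluster as MIR23B that acts on PAX3 in muscle stem cells, went the other way. It read 3.93, 3.81 and 4.01 in the adequate pigs, 3.75, 3.76 and 3.69 in the excess pigs and 3.92, 3.86 and 3.99 in the deficient pigs. Every excess pig was below every other pig, by -0.19 ± 0.072 against the adequate pigs (unadjusted p = 0.0327, limma adjusted p = 0.757). MIR23B and MIR27B, within 10 kb of each other, thus had excess means on opposite sides of the adequate means, both among the lowest probe sets of the array, at the 1.77th and 2.84th percentile.

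Between the deficient and excess diets the adjusted level was passed by 0% of all probe sets and the unadjusted level by 4.08% of them and by 4 of 161 loci, 2.48%. These 4 were MIR27B, MIR92A-1, MIR296 and MIR105-2. Without excess pig 11 the count was 1, MIR23A, or 0.621% of the loci against 3.71% of all probe sets. The count was 1 without excess pig 10, 2 without deficient pig 1, adequate pig 6 or adequate pig 7, and 26 without excess pig 9. For those fits too the shares of all probe sets are not given here. All deficient pigs lay above all excess pigs in 2 loci and below in 5, or 1.24% and 3.11%, against 4.28% and 2.19% of all probe sets. The counts were 9 and 7 (5.59% and 4.35%) with excess pig 11 left out, against 7.13% and 6.46% of all probe sets. With all pigs, the 2 higher loci were MIR27B (0.19 ± 0.072) and MIR15A (0.42 ± 0.23, and 0.13 without deficient pig 3). The 5 lower loci were MIR92A-1, MIR191 (-0.12 ± 0.062), MIR676-1 (-0.13 ± 0.068), MIR18A (-0.15 ± 0.087) and MIR101-1 (-0.098 ± 0.068). In mean 61 of 161 loci (37.9%) were higher in the deficient pigs, against 34.9% of probe sets below the median and 50.0% of all probe sets. It was 78 of 161 (48.4%) with excess pig 11 left out, against 52.3% and 50.8%. With all pigs the share became 50.3% after a further quantile normalization and 60.9% after centring on array medians. The F test over the 3 diets called 0% of probe sets, and 2.54% had an unadjusted p under 0.05.

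The other microRNA families were summarised by counts. Most loci of each family counted here were below the median. Of all probe sets below the median, 61.9% had a higher mean in deficient and 72.0% in excess pigs than in adequate pigs. Over the whole array the shares were 52.9% and 50.2%. The let-7 family, which holds back growth genes, had 2 of 8 measured loci with a higher mean in deficient pigs and 4 of 8 in excess pigs, each against adequate. The former became 4 of 8 without deficient pig 3 or adequate pig 7. The miR-30 family had 3 of 4 in each comparison, and in excess pigs 2 of 4 after centring on array medians and 1 of 4 without excess pig 9. The miR-181 family had 4 of 6 in deficient and 6 of 6 in excess pigs, and the latter became 4 of 6 after centring on array medians. The miR-15 and miR-16 family had 5 of 6 in deficient and 6 of 6 in excess pigs, and 3 of 6 in the latter after that centring, after a further quantile normalization or without excess pig 10. In deficient pigs it was 3 of 6 without adequate pig 5. No member of these 4 families reached an unadjusted p of 0.05 in any of the 3 comparisons. Of all probe sets, 1.85% to 4.08% did, depending on the comparison.

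In some loci a single pig stood far above the rest. Excess pig 11 gave the highest of the 9 values in 69 of 161 loci (42.9%), close to its share of 44.2% among all probe sets below the median. In 21 loci it exceeded the next pig by over 0.5 log2 units. MIRLET7C read 4.83, 5.97 and 4.36 in the deficient pigs, 4.81, 4.82 and 6.29 in the adequate pigs, and 4.96, 5.88 and 8.11 in excess pigs 9, 10 and 11. MIR155, known from activated immune cells, read 7.91 in excess pig 11 and at most 6.02 elsewhere, and MIR15B read 7.62 there and at most 5.73 elsewhere. These loci have large mean differences from the adequate pigs, 1.01 ± 0.84 for MIRLET7C and 1.14 ± 0.79 for MIR155, which were 0.12 and 0.25 without pig 11.

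Deficient pig 3 was the highest in 34 loci (21.1%), against 10.5% of probe sets below the median and 13.7% of all probe sets. It led by over 0.5 in 3 loci, MIR29C, MIR365-1 and MIR15A, and it also gave the highest value in 6 of the 7 muscle loci, all but MIR206. MIR29C read 6.40 in that pig and between 4.46 and 5.04 in the other 8. MIR365-1 read 5.63 there and between 4.20 and 4.64 elsewhere. No other pig led any locus by over 0.5.

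**Figure D5:**
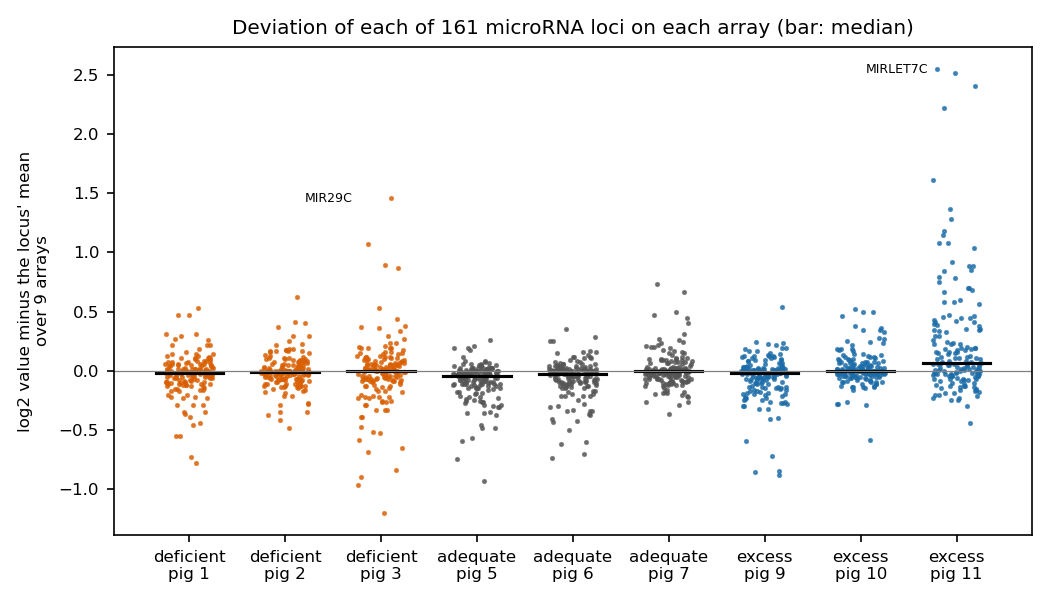
Each point is 1 of 161 microRNA loci on 1 array, as its log2 value minus the mean of that locus over 9 arrays; colours mark the diets and black bars the median of each array. Excess pig 11 has the point farthest above 0, MIRLET7C at 2.55 log2 units, and deficient pig 3 has MIR29C at 1.46.

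In spread the loci were quieter than the array as a whole. The median range over the 9 pigs was 0.41 log2 units for the loci and 0.56 for all probe sets, and the median SE of a difference was 0.11 against 0.13. A range over 1 log2 unit was found for 27 loci (16.8%), for 21.6% of all probe sets and for 11.9% of probe sets below the median. By that count the loci varied less than all probe sets but more than probe sets below the median. The median range and SE were not compared with those of probe sets below the median.

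Of 23 listed genes that make, load or degrade microRNAs, 13 were measured and 11 of these were at or above the median of all probe sets. DROSHA, DGCR8 and DICER1 were among those not analysed here. XPO5, which carries hairpins out of the nucleus, read 7.88, 7.64 and 8.22 in the deficient pigs, 8.19, 7.76 and 7.40 in the adequate pigs and 7.91, 7.67 and 7.43 in the excess pigs. AGO2, the slicing Argonaute, read 8.11, 7.89 and 8.53, then 8.24, 8.19 and 8.16, then 8.38, 7.83 and 7.29 in the same order. For both genes the 3 groups overlapped.

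With all 9 arrays no pathway gene reached an unadjusted p of 0.05 in any comparison. The shares over all probe sets were 1.85% (deficient minus adequate), 3.56% (excess minus adequate) and 4.08% (deficient minus excess). In mean, 6 of 13 pathway genes were higher in deficient than in adequate pigs, against 52.9% of all probe sets. AGO1 was lower in every deficient pig (6.87, 7.25 and 7.16) than in any adequate pig (7.27, 7.39 and 7.41), a difference of -0.26 ± 0.19. Its unadjusted p in the limma fit was 0.198, and 0.0409 without excess pig 11. AGO4 differed by -0.22 ± 0.20 and RAN, the partner of XPO5, by 0.088 ± 0.067. In excess pigs 1 of 13 pathway genes had a higher mean than in adequate pigs, and 5 of 13 did without excess pig 11. The shares of all probe sets were 50.2% and 51.2%. They differed with level, at 72.0% and 58.4% of probe sets below the median, and 11 of the 13 genes were at or above it. A fall particular to the pathway genes can therefore not be read from the count. ZCCHC6, also called TUT7, which adds uridines to precursors, had the smallest unadjusted p of this comparison, 0.0702, at -0.44 ± 0.21, and stood at -0.19 without pig 11. The DICER1 partners TARBP2 (-0.16 ± 0.11) and PRKRA (-0.38 ± 0.31) stood at -0.042 and -0.0092 without that pig. AGO2 differed by -0.36 ± 0.27, and by -0.093 without it. Between deficient and excess pigs the 3 smallest unadjusted p values belonged to RAN, TARBP2 and ZCCHC6. RAN differed by 0.13 ± 0.067, and by 0.12 without pig 11. The differences of TARBP2 (0.22 ± 0.11) and ZCCHC6 (0.35 ± 0.21) became 0.097 and 0.096 without that pig. The larger differences of AGO2 and XPO5, 0.34 ± 0.27 and 0.24 ± 0.23, had larger errors and became 0.071 and 0.12.

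The genes that hold microRNA loci were counted in the same way. Of 50, 23 had a higher mean in deficient and 13 in excess pigs than in adequate pigs, and the latter became 26 without excess pig 11. Of all probe sets, 52.9% and 50.2% were higher, and the latter was 51.2% without that pig. The share in excess pigs differed with level, at 72.0% of probe sets below the median, and 35 of the 50 genes were at or above it. In both comparisons 0 of the 50 genes passed the limma adjusted p of 0.05.

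Markers of other cell types were also compared between the diets, and none passed the limma adjusted p of 0.05. The endothelial list was mixed, with 4 of 6 higher in mean in deficient and 3 of 6 in excess pigs than in adequate pigs. For white blood cells these counts were 2 of 6 and 3 of 6. In whole muscle, fewer cells of a type and less RNA per cell cannot be told apart. All 5 measured fibroblast markers and all 5 smooth muscle and pericyte markers had a lower mean under both unbalanced diets than in adequate pigs. These directions held without excess pig 11. The mean of the fibroblast list ran from 10.63 to 11.00 in adequate pigs, 10.21 to 10.55 in deficient and 10.14 to 10.59 in excess pigs. For smooth muscle and pericytes the ranges were 8.77 to 9.13, 8.51 to 8.69 and 8.34 to 8.87. The 4 measured adipocyte markers all had a higher mean in deficient and a lower mean in excess pigs than in adequate pigs, the latter 3 of 4 without excess pig 11. Their list mean ran from 6.12 to 6.35 in deficient pigs, 5.65 to 6.17 in adequate and 5.51 to 5.64 in excess pigs. Their part in the differences of MIR29B-1, MIR92A-1, MIR378-1 and the other loci was not tested. MIR143 and MIR145, the microRNAs of smooth muscle, had the differences 0.17 ± 0.089 and -0.063 ± 0.064 between deficient and adequate pigs, 1 in each direction.

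The loci with 2 identical probe sets were MIR345-1, MIR92A-2, MIR486-1, MIR490-1, MIR125B-1, MIR744, MIR103-2, MIR363-1, MIR217-1, MIR9-1, MIR216-1, MIR676-1, MIR19B-2 and MIR34C-1. Their second probe set adds no measurement. No locus had values identical to a probe set outside the group, although 1239 probe sets of the array were identical to another. Of 161 loci, 68 lay within 10 kb of another and formed 28 neighbour groups.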

How the data were processed

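The deposited values are the authors' processed log2 values, 1 per probe set and pig; the log base is inferred from their range. GCOS 1.2 and Partek are named without a role, per the submitters' processing notes, and how background, summarization and normalization were handled is not given in the sources used here. Symbols came from the platform annotation through Entrez IDs, and loci were placed in genes by the Sscrofa11.1 RefSeq table. No coordinates are given, because the build of the array is not stated. With limma 3.58.1 in R 4.3.3, 1 mean per diet was estimated for each of 27558 probe sets over 9 arrays, with two-sided tests, Benjamini-Hochberg adjustment over all probe sets and a threshold of 0.05. It was tested on simulated data. Errors are SE of the model or SD among pigs. Named loci were the muscle and MIR378 loci, up to 5 per comparison and direction without overlap by smallest p, the 10 highest and 3 lowest means, the duplicates, the genes that hold them and pathway genes. MIR187, MIR221, the clusters of named loci and loci led by 1 pig were named after their values were seen. Members and lists were chosen with earlier results of these data known. Alternatives changed scaling, arrays, variance model, weights, covariate, filter or single pigs.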

Additional observations from a re-analysis of the deposited data

How the results depend on the processing

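No microRNA locus passed an adjusted p of 0.05 in the main fit or in any of 18 alternatives. The number of probe sets called over the whole array was 0 in each comparison and in the F test. It became 1 between deficient and adequate pigs with array quality weights, 1 between excess and adequate pigs without moderation of the variance, and 1 between deficient and excess pigs with dim probe sets left out, with only probe sets of 1 symbol and without moderation. The F test called 1 with array quality weights and 1 without moderation. Of 36 named differences with 626 alternative values, 2 reversed: PPARGC1B between excess and adequate pigs to -0.1015 without excess pig 9 (0.2410 without excess pig 10), and PRKRA to 0.0499 once array SD entered the model. At an unadjusted p of 0.05 the number of loci between excess and adequate pigs, 7, ran from 1 to 28, the latter without excess pig 9, and between deficient and excess pigs, 4, from 0 to 26, again without pig 9. Between deficient and adequate pigs it ran from 0 to 13, the latter with array quality weights. The number of loci below the median of all probe sets, 134, ran from 134 to 138. No paired analysis was possible because the diets share no replicate numbers. Signal over background was not tested, which limits every fold of a locus below the median.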

Other observations

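Among the microRNA loci, several pigs often carried exactly the same value. In 33 of 161 loci (20.5%) at least 3 of the 9 pigs shared 1 value to the last deposited digit, and in 13 loci (8.07%) at least 4 did. The shares over all probe sets were 20.5% and 8.87%, and over probe sets below the median of all 28.5% and 13.3%. MIR16-2 read 5.20106 in 5 pigs, deficient pigs 1 and 3, adequate pig 7 and excess pigs 9 and 10. MIR183 and MIR628 also repeated 1 value in 5 pigs. For MIR206, the muscle microRNA, deficient pig 2, adequate pigs 6 and 7 and excess pig 10 all read 3.88522. Such ties crossed the diet groups. How they arose was not tested, and the SD of a group that holds a tie can be smaller than the spread among the animals.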
